A study of Mus musculus with 4 samples.

Results

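The cytoplasmic ribosomal protein genes of mouse eosinophils are described here, comparing eosinophils sorted from the pleural cavity with eosinophils sorted from the bone marrow. Members were the genes of the deposited table whose symbol began with Rpl, Rps or Rplp and a digit, or was Rpsa, leaving out the Rps6k kinases and the pseudogenes named -ps. The rule found 76 of the 5807 listed genes, of which 48 encode large subunit proteins and 28 encode small subunit proteins. A textbook list of 79 cytoplasmic ribosomal proteins had 75 genes in the table. Of these, 74 fell under the rule. The other 2 members, Rpl22l1 and Rpl36al, are paralogs. Fau, Rps21, Rps27 and Rps29, all of the small subunit, were not among the listed genes, so no direction is known for them here.

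All cells came from wild-type mice, and the 4 samples were 2 libraries of bone marrow eosinophils and 2 of pleural cavity eosinophils. The labels and methods give mice bearing LLC, a Lewis lung carcinoma line injected into the pleural cavity to induce malignant pleural effusion, as the source of both tissues, with cells taken on the second day after injection, whereas the text of the study calls the bone marrow cells naïve. Bone marrow cells were enriched with F4/80 beads and sorted as CD45+ SiglecF+ cells of high side scatter, while pleural cells were enriched with CD45 beads and also gated as Gr1-/low, CD11c-, CD11b+ and F4/80+, so tissue and gate cannot be told apart. The table gives 1 mean read count per tissue, which is the authors' mean, and none for the single libraries. Without them neither a spread between replicates nor a test could be had, and every difference below is a description of means.

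Ribosomal proteins join ribosomal RNA in a small subunit, which binds and decodes the mRNA, and a large subunit, which forms the peptide bond and holds the exit tunnel. Each protein is present about once per ribosome apart from the stalk proteins, so cells make the proteins in balance. In mammals most of their mRNAs begin with a terminal oligopyrimidine (TOP) motif, a run of C and T at the start of the transcript through which mTORC1 and LARP1 control their translation. Eosinophils leave the bone marrow as non-dividing cells after their granule proteins have been made.

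The TOP motif is written in the gene around its transcription start, and the sequences of genes that recur below are printed for this reason. RefSeq promoter entries (GRCm38.p6) were found for 57 of the 76 members. Each sequence runs 5′ to 3′ on the gene's strand over the 20 bases before and the 20 bases from the RefSeq start, and capitals mark the longest run of C and T where it has 8 bases or more. Rpl7a, Rpl34, Rpl35, Rpl15 and Rpl4 had long runs, Rpl22l1 and Rps6 had shorter ones, and no run of this length stood in the windows of Rpl22, Rpl36a, Rpl36al, Rpl12 and Rpl41.
Rpl7a (chr2:26910787-26910826, plus strand): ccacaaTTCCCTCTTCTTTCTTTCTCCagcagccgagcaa
Rpl34 (chr3:130730318-130730357, minus strand): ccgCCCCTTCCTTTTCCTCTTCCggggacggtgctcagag
Rpl35 (chr2:39005112-39005151, minus strand): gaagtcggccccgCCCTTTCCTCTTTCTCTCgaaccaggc
Rpl15 (chr14:18270967-18271006, minus strand): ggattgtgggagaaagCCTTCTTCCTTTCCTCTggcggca
Rpl4 (chr9:64173367-64173406, plus strand): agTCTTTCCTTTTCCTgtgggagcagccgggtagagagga
Rps6 (chr4:86857348-86857387, minus strand): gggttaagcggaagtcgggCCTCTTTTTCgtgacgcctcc
Rpl22l1 (chr3:28805488-28805527, plus strand): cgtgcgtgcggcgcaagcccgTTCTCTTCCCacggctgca
Rpl22 (chr4:152324416-152324455, plus strand): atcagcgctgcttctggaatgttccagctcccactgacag
Rpl36a (chrX:134585634-134585673, plus strand): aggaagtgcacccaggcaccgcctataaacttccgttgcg
Rpl36al (chr12:69184048-69184087, minus strand): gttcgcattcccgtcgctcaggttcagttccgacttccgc
Rpl12 (chr2:32961692-32961731, plus strand): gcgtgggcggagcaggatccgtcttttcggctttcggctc
Rpl41 (chr10:128549149-128549188, minus strand): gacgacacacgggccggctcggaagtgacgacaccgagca

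A pyrimidine run of 8 or more bases stood in this window in 28 of the 57 members (49.1%), against 18.4% of 27025 genes with a promoter entry and 19.7% of the 4673 listed genes that had one. CCGGAA, the core of the sequence bound by ETS family factors, was searched on both strands over all 300 bases of the entries, from 250 before to 50 after the start. It stood in 30 members (52.6%), against 16.7% of all genes and 24.9% of listed genes. The TATA box letters TATAAA, searched on the gene strand in the 50 bases before the start, stood in 1 member (1.75%) and in 3.15% of all genes. Both the run and CCGGAA were present in 16 members. These matches describe letters in a window around an annotated start and are not bound sites. A run could lie anywhere in its window, and that of Rpl4 ended before the start, so a run is not by itself a TOP motif. The RefSeq start lay over 100 bases from the outermost start of the gene in the GENCODE annotation in 17 of the 57 members, among them Rpl12, Rpl15, Rpl35 and Rpl41, and Rpl22, whose RefSeq start lay 1306 bases upstream of it, so a run at another start would not be seen. For the 7 members with more than 1 entry, a motif in any entry counted.

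All 76 ribosomal protein genes had a lower mean level in the eosinophils of the pleural cavity. Levels are given as RPM, reads per 1000000 reads on listed genes, of which there were 15947438 mean reads in the pleural cavity and 11762543 in the bone marrow. Together the members took 1.56% of listed reads in the pleural cavity and 3.49% in the bone marrow, which was 15592 against 34911 RPM, or 2.24-fold lower. The log2 ratio of pleural cavity over bone marrow RPM had a median of -1.21 over the 76 genes, with quartiles of -1.42 and -0.96. It ran from -2.81 for Rpl22l1 to -0.57 for Rpl41.

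Over all 5807 listed genes the share with a lower level in the pleural cavity was 57.5%, against all 76 members. Lower by more than 2-fold were 54 members (71.1%), against 50.5% of all listed genes, and this order turned in unscaled mean reads, where 22.4% of members and 43.2% of listed genes passed 2-fold. Among the 2672 listed genes whose bone marrow mean lay in the members' range, 561 to 21043 reads, 30.6% were lower by more than 2-fold. The median log2 ratio was -1.02 over all listed genes and 0.34 over the genes in that read range. The members also lay closer together: their quartiles were 0.46 apart on the log2 scale, against 3.58 for all listed genes and 1.88 in the read range. Every listed gene had already passed the authors' q-value threshold of 0.05 for this same contrast. No listed gene had a log2 ratio between -0.47 and 0.18, so a listed gene had to stand on one side or the other. The quartiles of both background sets lay on both sides of this gap, which widens their spread, and lower genes alone were not compared.

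**Figure D1:**
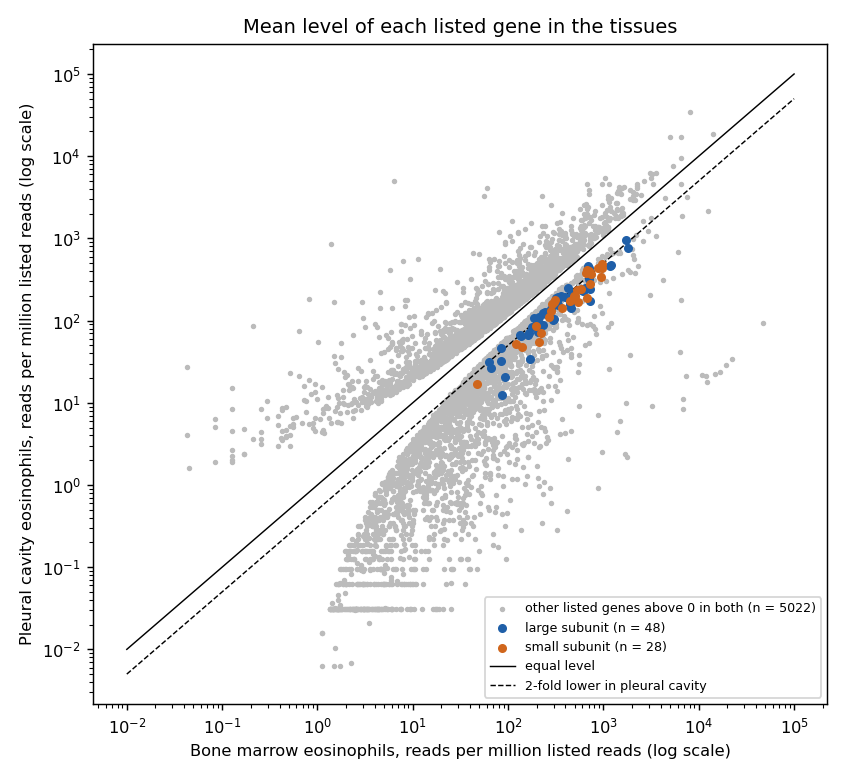
Mean level of each listed gene above 0 in both tissues, in RPM of listed reads on log axes, bone marrow on the horizontal axis and pleural cavity on the vertical axis. Large subunit genes (48, blue) and small subunit genes (28, orange) lie in a narrow band below the line of equal level, around the dashed line of a 2-fold lower level, while other listed genes (grey) lie on both sides.

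The direction of the members was the same under every scaling tried, but the size and the standing of the count against the background were not. Without any scaling, the mean reads themselves were lower in the pleural cavity for all 76 genes, although that tissue had more listed reads, with a median log2 ratio of -0.77 and 17 genes lower by more than 2-fold, a smaller share than among all listed genes. Other scalings moved the median of all listed genes by 0.44 up, with unscaled reads, to 0.44 down, and the members moved with it, since a scaling adds 1 constant to every gene.

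Markers of other and less mature cells differed in level between the tissues, although the methods describe cells sorted to high purity from both. Of 18 neutrophil and granulocyte precursor markers, 17 were listed and all were lower in the pleural cavity, with a summed level of 2483 RPM against 126085 RPM in bone marrow. The 7 proliferation markers, all listed and all lower, summed to 140 against 1885 RPM, and the 6 basophil markers to 10.9 against 968 RPM. Of 10 eosinophil markers 9 were listed: the receptors Ccr3 (log2 ratio 1.54) and Siglecf (1.15) and the transcription factor Gata1 (1.11) were higher in the pleural cavity, and the granule genes Prg2, Prg3, Epx, Ear1, Ear2 and Ear6 were lower, with log2 ratios of -9.11 to -7.26. Of the macrophage and monocyte markers 7 of 10 were listed, summing to 9610 and 10838 RPM in the pleural cavity and bone marrow. Adgre1 held 4635 and 969.7 RPM of these sums (log2 ratio 2.26). Adgre1 encodes the antigen of the bone marrow beads, which was also part of the pleural gate, so it marks the sorted eosinophils too. The other markers were not alike. Csf1r (1.94), C1qb (1.77) and C1qa (0.92) were higher in the pleural cavity, and Lyz2 (-1.24), Mrc1 (-1.27) and Ly6c2 (-5.62) were lower. Of 5 T and NK cell markers 2 were listed, with Nkg7 at 7.02 and 886.9 RPM in the pleural cavity and bone marrow. Krt18, the only listed gene of 3 tumor markers, stood at 120.3 and 44.0 RPM. Ms4a1, the only listed gene of 4 B cell markers, stood at 22.95 and 9.10 RPM. Ribosomal protein genes are expressed in all cells, fewer cells of a type and less RNA per cell cannot be told apart in these libraries, and the part of such cells in the ribosomal values was not tested. When eosinophil granule, neutrophil, precursor and basophil markers were left out of the total, the members took 1.56% of listed reads in the pleural cavity and 4.44% in the bone marrow.

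The large and the small subunit were lower to the same extent as sums. Large subunit genes held 9437 RPM in the pleural cavity and 21115 RPM in the bone marrow, and small subunit genes held 6155 and 13796 RPM, both 2.24-fold lower. Large subunit genes took 60.5% of the members' reads in each tissue, and small subunit genes 39.5%. By gene, 33 of 48 large subunit genes and 21 of 28 small subunit genes were lower by more than 2-fold. The median log2 ratio was -1.15 for the large subunit (quartiles 0.46 apart) and -1.24 for the small subunit (quartiles 0.41 apart), a difference of 0.09 that was small beside the spread of the genes and became 0.033 when members with fractional reads were left out. The 4 genes with the lowest ratios were all of the large subunit, and so were the 2 with the highest.

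**Figure D2:**
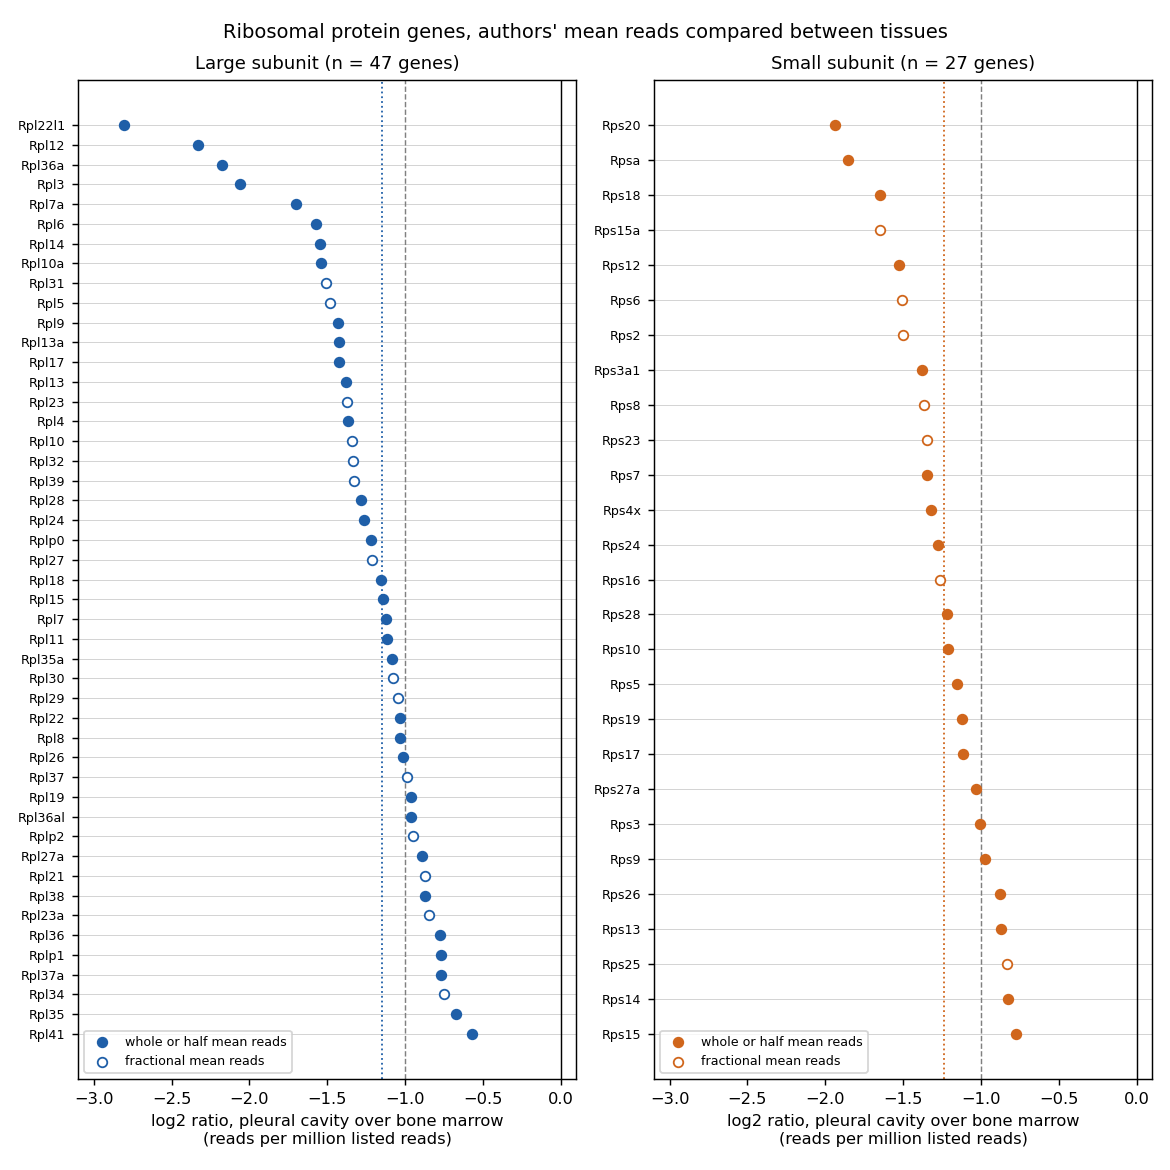
Log2 ratio of pleural cavity over bone marrow level for 47 of the 48 large and 27 of the 28 small subunit genes, from the authors' mean reads. Open circles are genes with fractional reads, dotted lines are the medians of all 48 and all 28 genes (-1.15 and -1.24), the dashed line is a 2-fold lower level, and every gene plotted lies left of 0.

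Rpl22l1, a paralog of Rpl22, was furthest from equal. Its mean was 197 reads in the pleural cavity and 1016 in the bone marrow, or 12.4 and 86.4 RPM, 6.99-fold lower. Rpl12, a protein at the base of the stalk where elongation factors dock, followed with 540.5 and 2006 reads (33.9 and 170.5 RPM, 5.03-fold lower). Rpl36a had 326 and 1085 reads (20.4 and 92.2 RPM, 4.51-fold lower). All 3 genes had whole reads, with no sign of reads divided between similar sequences.

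Rpl3, which reaches into the peptidyl transferase center, had 2744.5 and 8458.5 reads (172.1 and 719.1 RPM, 4.18-fold lower). Rps20, of the small subunit head, had 870 and 2455 reads (54.6 and 208.7 RPM, 3.83-fold lower). Rpsa, also known as the laminin receptor, Rpl7a, Rps18 and Rps15a were the other members lower by more than 3-fold, making 9 in all. The lower quartile of the log2 ratio over all listed genes, -2.90, was itself past 3-fold. That of the members, -1.42, and that of listed genes in the members' read range, -1.22, were not.

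At the other end, Rpl41, the shortest ribosomal protein, had 7437.5 and 8140.5 reads (466.4 and 692.1 RPM), 1.48-fold lower. Rpl35, beside the exit tunnel, had 7020.5 and 8264 reads (440.2 and 702.6 RPM), 1.60-fold lower. Rpl34 and Rpl37a also stood near this end, with log2 ratios of -0.75 and -0.77. In all, 22 members were lower by 2-fold or less. The threshold cut through a continuous series: Rpl26 (-1.01) and Rps3 (-1.01) lay just inside it, and Rpl37 (-0.99) and Rps9 (-0.97) just outside.

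Genes of 1 structure were not alike in ratio. In the stalk that recruits elongation factors, Rplp0 had 12273 and 21043 reads in the pleural cavity and bone marrow, the most bone marrow reads of any member, with a log2 ratio of -1.22. Rplp1 (3113.5 and 3922.5 reads) and Rplp2 (1743 and 2483 reads), the acidic proteins bound to Rplp0, had log2 ratios of -0.77 and -0.95. Rpl12 in the same stalk had -2.33 and lay apart from the other 3.

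Rpl5 and Rpl11 bind the 5S ribosomal RNA and, when free, the p53 regulator Mdm2. Rpl5 had 2568 and 5300 reads (log2 ratio -1.48), and Rpl11 had 2457 and 3930 reads (-1.12). Of the catalytic core proteins, Rpl4 had 7485 and 14264 reads (-1.37) and Rpl10, required for the last step of large subunit maturation, 4026 and 7533 reads (-1.34), both nearer to the members' median than Rpl3. Among the exit tunnel proteins Rpl17 and Rpl39 had log2 ratios of -1.42 and -1.33, and Rpl23a and Rpl35 of -0.85 and -0.67.

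On the small subunit, 3 genes listed for proteins near the mRNA were lower by more than 2-fold, Rps3 only just. Rps2 had 5332 and 11128 reads (log2 ratio -1.50), Rps3 had 7025 and 10418 reads (-1.01), and Rpsa had 2968.5 and 7927.5 reads (-1.86). Rps27a, which is made as a fusion with ubiquitin, had 5829.5 and 8794.5 reads (-1.03).

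Several members are known for roles outside translation or for disease. Rps19, mutated in Diamond-Blackfan anemia, had 7017 and 11285 reads in the pleural cavity and bone marrow (log2 ratio -1.12), and Rps14, lost in the 5q- syndrome, had 5975.5 and 7808 reads (-0.83). Rpl13a, a part of an interferon-gamma activated inhibitor of translation, had 3752.5 and 7427.5 reads (-1.42). Rpl26, which binds p53 mRNA, had 2228 and 3316.5 reads (-1.01), and Rpl38, linked to translation of Hox mRNAs, 735 and 991 reads (-0.87). The ratio of Rpl13a lay below the members' median of -1.21, and those of the others named here lay above it.

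Rps6, the substrate of S6 kinase, had the fewest bone marrow reads of all members, 267 in the pleural cavity and 561 in the bone marrow (log2 ratio -1.51). The row of the pseudogene Rps6-ps4 held 4686 and 10903 reads (-1.66), which was 94.6% and 95.1% of the reads of both rows. Both rows had fractional means, a sign that RSEM divided reads between similar sequences, so the low level of Rps6 is uncertain, while the sum of both rows had a log2 ratio of -1.65. Among all members 22 had such fractional means, with a median log2 ratio of -1.30, against -1.15 for the 54 with whole reads, of which 39 were lower by more than 2-fold.

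The 2 paralog pairs with both genes listed had a different make-up in the tissues. Rpl22 and Rpl22l1 bind RNA, and Rpl22 is known to repress Rpl22l1 in mice. In bone marrow eosinophils Rpl22l1 held 57.7% of the reads of the pair (95% Wilson interval 56.0 to 59.3%), and in pleural cavity eosinophils 28.5% (26.2 to 30.9%). Rpl22 itself had 494.5 and 746 reads in the pleural cavity and bone marrow (31.0 and 63.4 RPM). Its log2 ratio of -1.03 lay between the members' median of -1.21 and their upper quartile of -0.96. The annotated mRNA lengths were 552 bases for Rpl22l1 and 474 for Rpl22. Per kilobase, Rpl22l1 stood at 1.17 times Rpl22 in the bone marrow and at 0.342 times in the pleural cavity. The order of the genes turned with these lengths, and other transcript lengths were not tried. The log2 ratio of Rpl22l1 was below that of Rpl22 by 1.77.

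In the other pair, X-linked Rpl36a held 27.3% of the reads in the bone marrow (95% Wilson interval 26.3 to 28.3%) and 13.9% in the pleural cavity (13.0 to 15.0%). Rpl36al, on chromosome 12, had 2011.5 and 2891 reads in the pleural cavity and bone marrow (126.1 and 245.8 RPM, log2 ratio -0.96), and the ratio of Rpl36a was lower than that by 1.21. Rpl36al stood at 2.45 times Rpl36a per kilobase in the bone marrow and at 5.67 times in the pleural cavity, so it was the higher gene in both. The intervals cover counting error of the reads of both libraries only and not the spread between them. A share within a pair does not depend on the scaling. The genes lie at chr3:28805436-28807424 (Rpl22l1), chr4:152325742-152334071 (Rpl22), chrX:134585654-134588062 (Rpl36a) and chr12:69182731-69184083 (Rpl36al) in GRCm38. Of 8 pairs in the paralog list, the paralogs Rps27l, Rpl3l, Rpl7l1, Rpl39l, Rpl10l and Rps4l were not listed.

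**Figure D3:**
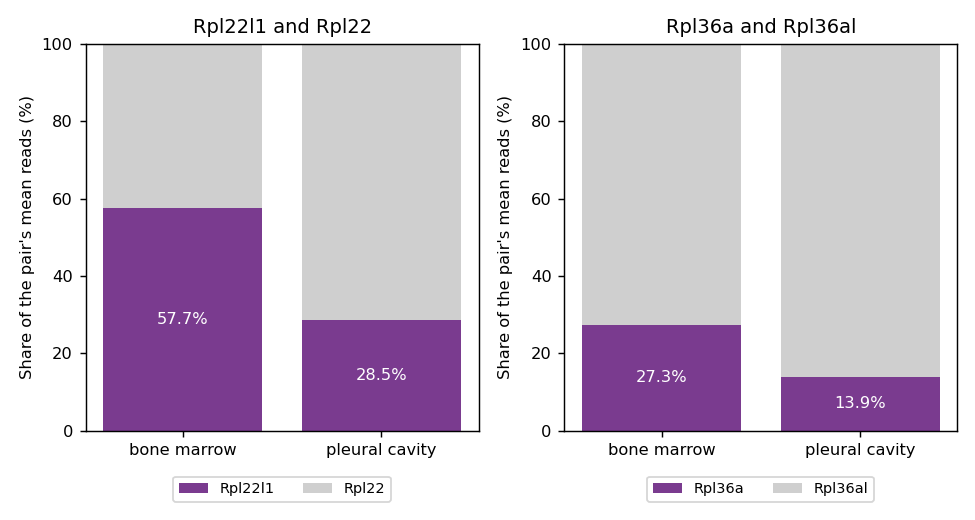
Share of the mean reads of each paralog pair, in percent, in bone marrow and pleural cavity eosinophils. Rpl22l1 went from 57.7% of its pair in bone marrow to 28.5% in the pleural cavity, and Rpl36a from 27.3% to 13.9%.

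The order of the genes by level was much alike in both tissues. Per kilobase of mRNA the members ran from 54.3 to 1520 RPM in bone marrow eosinophils, with a median of 498, and from 14.7 to 916 RPM in the pleural cavity, where the median was 221. Spearman's rho between the tissues was 0.955 over the 76 genes, which share lengths and libraries. Among the highest in bone marrow were Rpl13 (1520 RPM per kilobase, and 585 in the pleural cavity), Rpl41 (1360 and 916), Rplp0 (1317 and 567) and Rps9 (1290 and 657). Rpl41 was the highest member of the pleural cavity. The spread between libraries is unknown, so neighbours in this order cannot be separated. Rps20, with an annotated mRNA of 3706 bases, and other genes whose annotated transcript is longer than the one expressed have levels per kilobase that are too low.

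Members with long coding sequences tended to be lower. The 26 members with coding lengths of 138 to 408 bases had a median log2 ratio of -1.06, the 26 with 411 to 582 bases -1.13, and the 24 with 588 to 1257 bases -1.37. Spearman's rho between coding length and log2 ratio was -0.41 over the 76 members. It was -0.44 over the 54 with whole reads, -0.51 in the large subunit and -0.20 in the small subunit. Over 1191 other listed genes in the same ranges of reads and coding length it was -0.03. The number of bone marrow reads had little relation to the ratio (rho 0.09). These correlations are descriptions across genes that share the same libraries, and RNA quality was not tested.

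**Figure D4:**
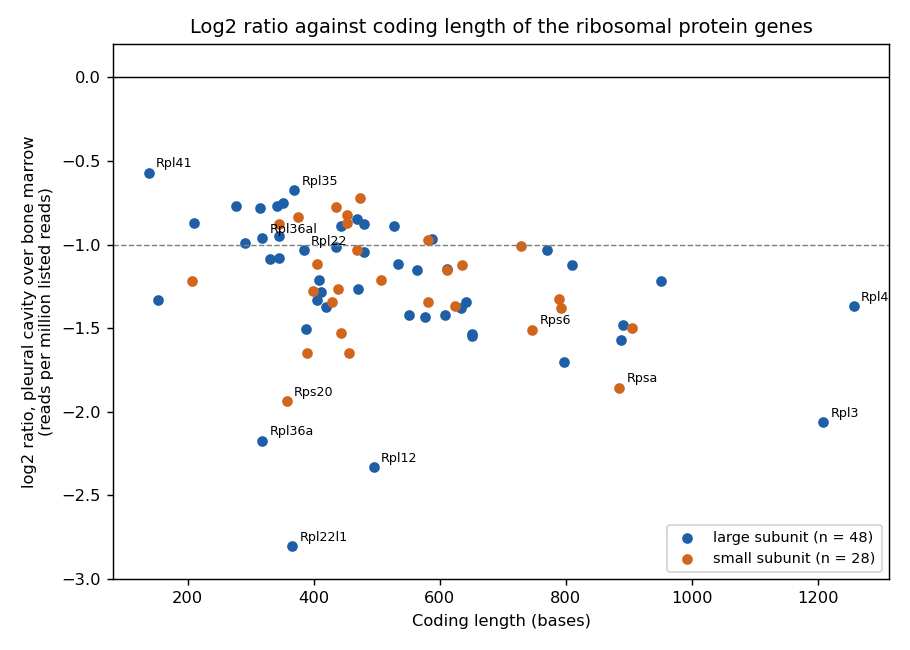
Log2 ratio of pleural cavity over bone marrow level against coding length in bases for the 48 large and 28 small subunit genes, with named genes labelled and the dashed line at a 2-fold lower level. Short genes such as Rpl41 and Rpl35 lie highest. Of the long genes Rpl3 lies low and Rpl4 (-1.37) nearer to the median. Rpl22l1, Rpl36a, Rpl12 and Rps20 are shorter genes that also lie low.

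Other features separated the members little. With a pyrimidine run near the start the median log2 ratio was -1.28 (28 genes), and without it -1.27 (29 genes), so Rpl7a, with the longest of the printed runs, was 3.25-fold lower and Rpl35, with a run nearly as long, 1.60-fold lower. With CCGGAA it was -1.15 (30 genes) and without it -1.32 (27 genes). The members lay on 19 chromosomes. The 4 X-linked genes Rpl10, Rpl36a, Rpl39 and Rps4x had a median of -1.34, and the 72 autosomal genes -1.15.

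Genes that act with the ribosome were mostly lower as well, but not without exception as the members were. Of 20 translation factors and other TOP mRNAs 13 were listed, with a median log2 ratio of -1.21. Lower were 12 (92.3%, against 57.5% of all listed genes), and lower by more than 2-fold were 9 (69.2%, against 50.5%). Eef1a1, the elongation factor that brings aminoacyl-tRNA, had 17018 and 42241 reads in the pleural cavity and bone marrow (-1.75), Eef2, the translocase, had -1.11, Pabpc1, which binds poly(A) tails, -0.85, and Naca, which binds nascent chains, -1.21. The initiation helicase Eif4a2 was the exception, 1.32-fold higher in the pleural cavity (0.40). Its direction depended on the scaling, since another scaling lowered every gene by 0.44.

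Of 25 ribosome assembly genes 13 were listed, and 12 were lower (92.3%, against 57.5% of all listed genes), with a median of -1.48. Nucleolin (Ncl), Dkc1 and Nop58, which act in the nucleolus, had log2 ratios of -0.95, -1.86 and -1.55. Eif6, which keeps new large subunits from joining early, was higher (0.60).

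Of 23 genes of the mTORC1, LARP1 and Myc list 11 were listed, 7 lower and 4 higher. The share lower was 63.6%, near the 57.5% of all listed genes. Myc, an activator of ribosome synthesis, had 240.5 and 2591 reads in the pleural cavity and bone marrow (-3.87). Mxd1, which competes with Myc for its partner Max, had -1.35, Eif4e, the cap-binding protein, -1.21, and Larp1 -0.84. Eif4ebp1, the inhibitor of Eif4e, had 7052 and 1922.5 reads and was higher (1.44). Also higher were Eif4ebp2 (0.77), the mTORC1 scaffold Rptor (1.19) and Lamtor1 (0.38). Mlst8 (-1.94), Tbc1d7 (-1.64) and Larp4 (-0.78) of the same list were lower. Lamtor1, and the mitochondrial ribosomal gene Mrps24 (0.36), would be lower under the scaling that moved every gene down by 0.44. Of the mitochondrial ribosomal protein genes, collected after their values were seen, 16 were listed, 11 lower (68.8%, against 57.5%) and 5 higher. Their median was -0.94. Their quartiles were 1.49 apart, against 0.46 for the cytoplasmic ones, but lay on both sides of the range around 0 that holds no listed gene.

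**Figure D5:**
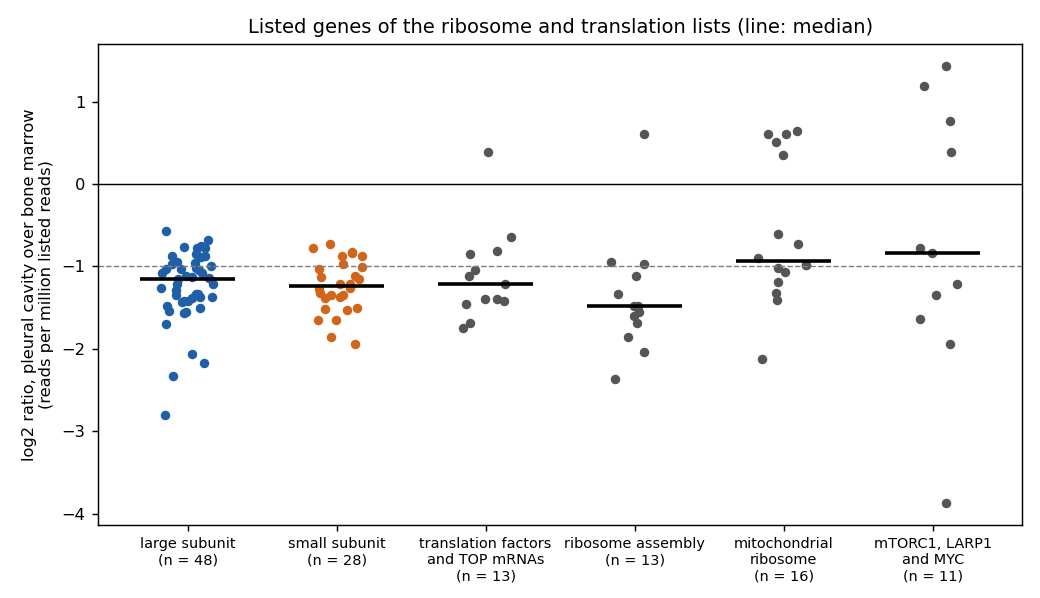
Log2 ratio of pleural cavity over bone marrow level for the listed genes of 6 lists, with a black line at each median and a dashed line at a 2-fold lower level. All 48 large and 28 small subunit genes lie below 0, while 1 of 13 translation factor and TOP genes, 1 of 13 assembly genes, 5 of 16 mitochondrial ribosomal genes and 4 of 11 mTORC1, LARP1 and Myc genes lie above it.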

How the data were processed

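Total RNA of sorted eosinophils was made into low-input mRNA libraries and sequenced as paired reads of 100 bp. After trimming (SOAPnuke) and alignment to GRCm38 (HISAT2 2.1.0), the authors estimated expected counts with Bowtie2 (2.2.5) and RSEM (1.2.8). The deposited table gives the authors' mean of these estimated counts in each tissue, for genes with a q-value below 0.05. The study also states a minimum fold change for its list, which the table's own column does not follow. The study's split of higher and lower genes differs from the one used here, which rests on means scaled to listed reads. The table's columns of log2 fold changes, p-values and q-values hold the authors' own comparison and were not used here beyond checking the thresholds. Library totals and values per library were not used here.

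Mean counts were divided by their sum over the 5807 listed genes, times 1000000 (Python 3.11.15, pandas 2.3.3). A mean below 3 reads in a tissue was set to a floor of 3 for the log2 ratio, which is then a bound. This touched no member. Fold differences past 2-fold were counted without a test. A mean of 2 libraries is fractional where its double is not a whole number. Lengths came from GENCODE vM21 (GRCm38), from the transcript with the longest coding sequence and, among equals, the shortest mRNA. Coordinates came from the same annotation, and promoters from RefSeq. Named genes were those with listed roles, paralogs, the 5 members with the largest and the 5 with the smallest ratios, the 5 highest per kilobase, and up to 4 of each other list with most reads, and others are named to account for counts. A few genes that this rule names are not reported here. The members and lists were chosen with earlier results of these data known. On simulated data in which only the members changed, a known median ratio was recovered once the scaling was taken back out. No shift of other genes was simulated.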

Additional observations from a re-analysis of the deposited data

How the results depend on the processing

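All 76 members kept a lower level in the pleural cavity under the main scaling and all 5 others. Without scaling the median log2 ratio was -0.77 and 17 members were lower by more than 2-fold, which was 22.4% of members against 43.2% of listed genes, where the main scaling gave 71.1% and 50.5%. With the median ratio of the 1524 genes of 1000 or more mean reads as the scale, the median was -1.65 and the count 76 (57.3% of listed genes), and without eosinophil granule, neutrophil, precursor and basophil markers in the total -1.55 and 75 (56.3%). Leaving out Ccr3, Siglecf and Gata1 as well, chosen after seeing the data, gave -1.55 and 75 (56.2%), and member shares of 1.57% and 4.45% of listed reads. Leaving the 20 genes with most reads out of the total, an alternative chosen after seeing the data, gave -1.41 and 68 (54.2%). At 1.5-fold the count was 75, and at 3-fold it was 9. The share of all listed genes was not computed at these folds. Their lower quartile, a log2 ratio of -2.90, was past 3-fold, and that of the members, -1.42, was not. Without members of fractional reads the median was -1.15, the large minus small subunit difference 0.033, and the share of listed reads 1.202% in the pleural cavity and 2.70% in the bone marrow. Without the marker genes alone these shares were 1.56% and 4.44%. The filter at 100 mean reads and the textbook members alone changed no median, and the paralog shares did not change with the read filter. Leaving out single libraries was not run, since the table holds means. No paired analysis was possible because the columns carry no replicate numbers. The fewest mean reads of a member were 197, and the spread between libraries is unknown.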
